A study of Mus musculus with 8 samples.

Results

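The genes described here are the 3 chicken ovalbumin upstream promoter transcription factor (COUP-TF) genes of the mouse, *Nr2f1*, *Nr2f2* and *Nr2f6*, and *A830082K12Rik*, a long noncoding RNA gene that starts inside *Nr2f1* on the opposite strand. They were chosen by name, and *Nr2f1* and *A830082K12Rik* were chosen with their difference between genotypes already known, so the genotype values of the 4 genes are given as a description. No p is given for them, and whether they were past a threshold is stated as part of that description and supports nothing. They are 4 of the 27179 genes in the count files and 4 of the 16658 genes that passed the filter on low counts. RNA was sequenced from whole uteri of 8 mice at postnatal day 10 (PD10), with 1 library per mouse. Controls (n = 4) were *Ezh2* f/f, with floxed *Ezh2* and no Cre. The *Ezh2 Amhr2*-Cre cKO mice (n = 4) were *Ezh2* f/f; Acre, with Cre driven by *Amhr2*, so floxed *Ezh2* was shared by both groups. *Amhr2*-Cre works in cells that derive from mesenchyme, and whole uterus also holds cells in which it does not. The study asked whether EZH2, the methyltransferase of polycomb repressive complex 2 (PRC2), is needed for the uterine glands to develop.

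COUP-TFs are orphan nuclear receptors that bind direct repeats of the half-site AGGTCA and mostly repress transcription by recruiting corepressors. *Nr2f2* encodes COUP-TFII, which in the uterus is made in the stroma, where Indian hedgehog (IHH) from the epithelium acts through Patched and GLI proteins to maintain it, and which is needed for the stromal response to an embryo. *Nr2f1* encodes COUP-TFI, best known from the developing brain and eye, and *Nr2f6* encodes the more distant relative EAR2, known from T cells. PRC2 represses many developmental regulators, and the genes it represses often have starts rich in CpG dinucleotides.

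The RefSeq promoter table of GRCm38.p6 gives a window of 300 bases around each start, from 250 bases before it to 50 after it, and all 4 genes were matched in it. *Nr2f1* (Entrez 13865) lies at chr13:78188971-78198873 on the minus strand, and *A830082K12Rik* (Entrez 320174) at chr13:78198017-78236564 on the plus strand. Their spans share 857 bases, and *A830082K12Rik* starts 856 bases inside *Nr2f1*, counted from the first base of *Nr2f1*. The table has 2 windows for *Nr2f1*. The one at its outermost start held 23 CpG, more than 78.5% of the 32851 windows in the table, whose median was 7 CpG, and the one at an inner start (chr13:78196400-78196699) held 4, more than 31.4% of windows. The *A830082K12Rik* window held 16 CpG, more than 67.0% of windows. The single window of *Nr2f2* (Entrez 11819, chr7:70351946-70366746, minus strand) lay at its outermost start, wholly within annotated GENCODE exons, and describes that start alone. It held 2 CpG, and 14.1% of windows had fewer. *Nr2f6* (Entrez 13864, chr8:71374118-71381967, minus strand) had 53, more than 99.5% of windows. The half-site AGGTCA, searched on both strands, occurred in none of the members' windows and in 16.3% of all windows, and the direct repeat AGGTCANAGGTCA occurred in none of the members' windows and in 0.0396% of all windows. The sequences shown are those of the 2 windows that hold bases outside every annotated GENCODE exon, with each CpG in capitals, written 5′ to 3′ on the strand of the gene. They give the setting of *A830082K12Rik*, which starts inside *Nr2f1*, and of *Nr2f6*, the most CpG-rich of the 4. They differ in length, so the CpG counts of the whole windows, not of these stretches, compare the genes.
A830082K12Rik, chr13:78197931-78198016, plus strand: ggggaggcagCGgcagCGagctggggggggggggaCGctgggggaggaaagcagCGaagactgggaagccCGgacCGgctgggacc
Nr2f6, chr8:71381961-71382202, minus strand: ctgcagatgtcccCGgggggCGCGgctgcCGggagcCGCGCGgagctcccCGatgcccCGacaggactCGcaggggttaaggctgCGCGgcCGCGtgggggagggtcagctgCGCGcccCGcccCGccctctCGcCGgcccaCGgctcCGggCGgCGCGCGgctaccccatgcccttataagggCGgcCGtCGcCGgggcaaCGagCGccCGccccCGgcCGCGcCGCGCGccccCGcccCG
The stretch of *A830082K12Rik*, the 86 bases just before its start, holds 6 CpG. That of *Nr2f6*, 242 bases of its promoter window, holds 41, and its last 7 bases lie within the gene's outermost RefSeq limit.

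Library totals ran from 25287141 to 36685807 counts, and levels are given as TMM-normalized counts scaled to library size (CPM). A gene without counts could still be present at up to 3 counts, which is 0.0824 to 0.117 CPM. Across the 16658 genes, edgeR's quasi-likelihood test with Benjamini-Hochberg adjustment called 889 (5.34%) at an adjusted p under 0.05, 437 higher (2.62%) and 452 lower (2.71%) in cKO uteri. Of these, 217 (1.30%) also changed over 2-fold and are termed differentially expressed (DE). At an unadjusted p under 0.05 edgeR had 3535 genes (21.2%), DESeq2 called 1506 (9.04%) and limma-voom 830 (4.98%), and these shares are the background of the counts given for gene lists. *Ezh2* read 35.4 to 54.7 CPM in control uteri and 30.4 to 40.7 CPM in cKO uteri, a log2 fold change of -0.29 (SE 0.13, adjusted p = 0.247). The counts cover the gene as a whole and are not split by exon, so they did not show whether the floxed part was lost. The cKO replicate 4 stood apart from the other cKO libraries in its summed fat and stromal marker levels, as given with the marker lists.

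The *Nr2f1* level was higher in every cKO library than in any control library. The control libraries read 2.93, 3.83, 2.35 and 2.14 CPM (93, 99, 66 and 78 counts), and the cKO libraries read 7.53, 8.27, 7.27 and 5.99 CPM (194, 247, 236 and 171 counts). The groups did not overlap, and the lowest cKO library, replicate 4, still lay above the highest control library, replicate 2. The mean rose from 2.81 ± 0.755 to 7.26 ± 0.949 CPM (SD, n = 4), a ratio of 2.58, and the fitted log2 fold change was 1.38 (SE 0.18). By the size of this fold change *Nr2f1* ranked 213 among the 16658 genes. In bulk uterus, more cells that make a transcript and more of it per cell cannot be told apart, and this holds for all values below.

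*A830082K12Rik* moved the same way from a lower level. It read 0.915, 1.24, 1.36 and 1.07 CPM in control uteri (29, 32, 38 and 39 counts) and 2.14, 3.01, 2.40 and 2.42 CPM in cKO uteri (55, 90, 78 and 69 counts). Again the groups did not overlap, but the order of the libraries was not that of *Nr2f1*: control replicates 1 and 2 were the highest controls for *Nr2f1*, whereas control replicate 3 was the highest for *A830082K12Rik*. The mean rose from 1.14 ± 0.193 to 2.49 ± 0.370 CPM (SD, n = 4), a ratio of 2.18, with a fitted log2 fold change of 1.13 (SE 0.20). These values rest on 29 to 90 counts per library.

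*Nr2f2*, by far the most abundant of the 4, did not separate the genotypes. It read 299.6, 310.5, 262 and 263 CPM in control uteri and 263, 268, 260.0 and 236 CPM in cKO uteri. Control replicates 1 and 2 lay above all cKO libraries, and control replicates 3 and 4 lay among them. The means were 284 ± 24.9 and 257 ± 14.0 CPM (SD, n = 4), and the log2 fold change was -0.14 (SE 0.07).

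*Nr2f6* differed least. Its control libraries read 39.9, 42.0, 46.5 and 42.4 CPM and its cKO libraries 42.3, 40.0, 46.7 and 46.9 CPM. Both groups covered nearly the same range, with means of 42.7 ± 2.76 and 44.0 ± 3.43 CPM (SD, n = 4) and a log2 fold change of 0.04 (SE 0.07).

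**Figure D1:**
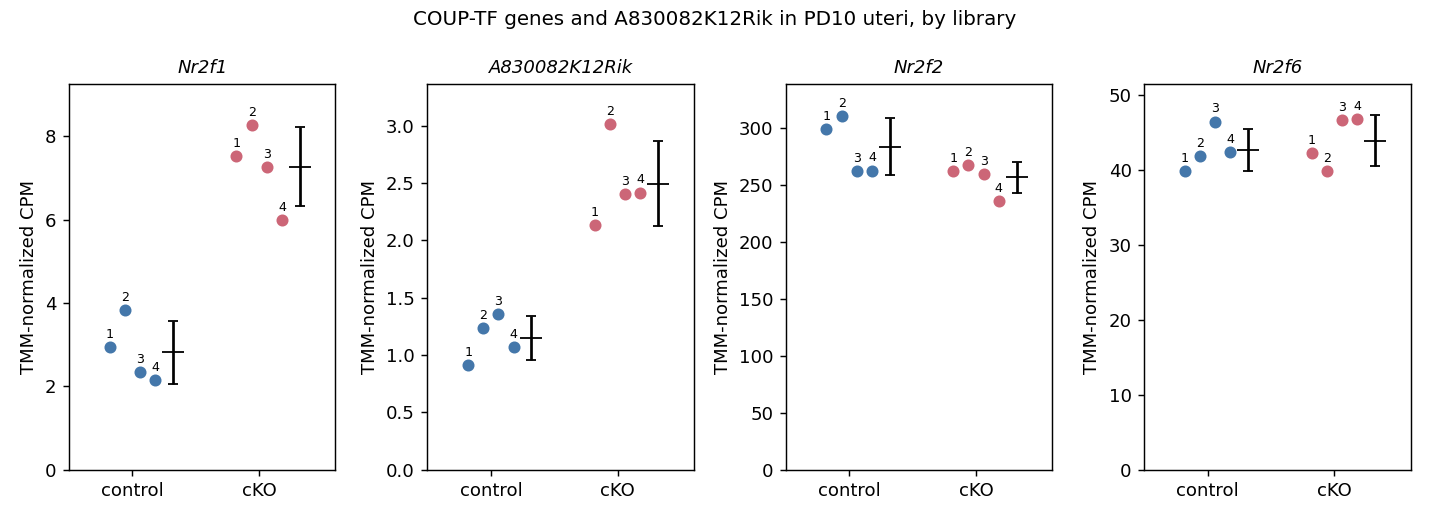
Each panel plots the TMM-normalized CPM of 1 gene, on an axis from 0, in the 4 control and 4 cKO libraries (points, numbered by replicate), with the mean and SD as a black bar. The cKO points lie above all control points for *Nr2f1* (5.99 to 8.27 against 2.14 to 3.83 CPM) and *A830082K12Rik* (2.14 to 3.01 against 0.915 to 1.36 CPM), and the groups overlap for *Nr2f2* and *Nr2f6*.

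Of the 4 genes, 2 were past the adjusted p threshold (5.34% of all genes tested were), both in the higher direction (2.62% of all genes). Both were DE and higher, beside 1.30% of all genes DE and 0.666% DE and higher. The same 2 had groups that did not overlap, beside 12.3% of all genes in either direction and 5.90% with cKO libraries above. Since the genes were chosen for this, nothing is read from these counts.

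To compare levels between genes, CPM was divided by the length in kilobases of the exons of the RefSeq-matched GENCODE transcripts, which was 3207 bases for *Nr2f1*, 4865 for *Nr2f2*, 2218 for *Nr2f6* and 1474 for *A830082K12Rik*. On this scale (RPKM) the order in control uteri was *Nr2f2* at 58.3 ± 5.12, *Nr2f6* at 19.3 ± 1.24, *Nr2f1* at 0.878 ± 0.235 and *A830082K12Rik* at 0.777 ± 0.131 (SD, n = 4). The same order held in cKO uteri, at 52.8 ± 2.88, 19.8 ± 1.55, 2.27 ± 0.296 and 1.69 ± 0.251. In both groups *Nr2f2*, *Nr2f6* and *Nr2f1* were separated by far more than their SDs. The lower pair was not: in control uteri *Nr2f1* and *A830082K12Rik* differed by less than the SD of *Nr2f1*, and in cKO uteri the lowest *Nr2f1* library (1.87) lay below the highest *A830082K12Rik* library (2.04). This depends on the length used: with the exons of all GENCODE transcripts (5093 bases for *Nr2f1*, 8255 for *A830082K12Rik*) the pair did not overlap, at 0.420 to 0.752 against 0.111 to 0.164 in control uteri and 1.18 to 1.62 against 0.259 to 0.365 in cKO uteri.

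**Figure D2:**
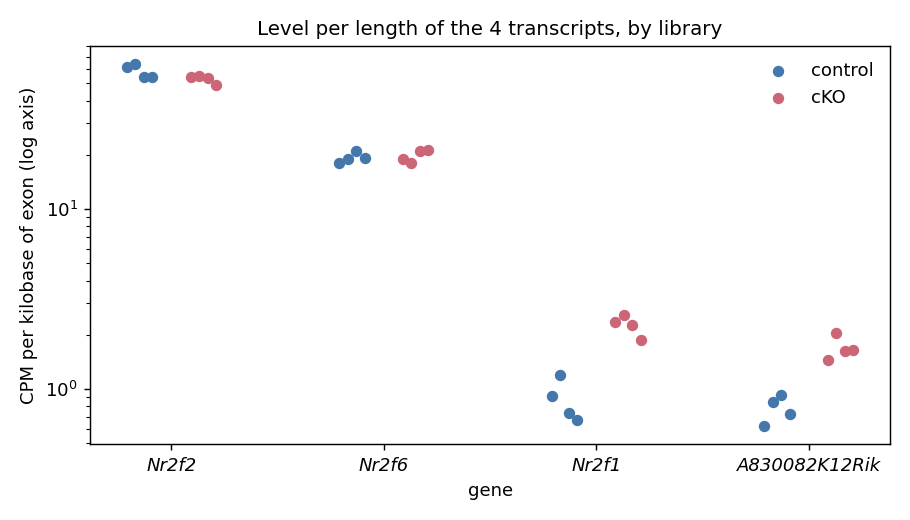
CPM per kilobase of exon (log axis) of each gene in the 4 control and 4 cKO libraries, 1 point per library. *Nr2f2* lies at 48.6 to 63.8 and *Nr2f6* at 18.0 to 21.1 in all libraries, and *Nr2f1* moves from 0.668 to 1.19 in control to 1.87 to 2.58 in cKO uteri.

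COUP-TF transcripts in these uteri therefore came almost wholly from *Nr2f2* and *Nr2f6*. *Nr2f1* made up 0.904% to 1.42% of the summed RPKM of the 3 genes in control uteri and 2.61% to 3.41% in cKO uteri. *Nr2f2* made up 71.3% to 76.5% in control and 67.9% to 72.8% in cKO uteri. Per length, *Nr2f2* was 53.4 to 80.9 times *Nr2f1* in control and 21.4 to 26.0 times in cKO libraries. The summed RPKM was 78.5 ± 4.60 in control and 74.9 ± 2.26 in cKO uteri (SD, n = 4), with the ranges overlapping. With the exons of all GENCODE transcripts as the length, the mean share of *Nr2f1* was 1.15% in control and 3.10% in cKO uteri.

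The libraries were made with a stranded kit, but the strand setting of the counting is not given in the sources used here, so reads from *Nr2f1* and from *A830082K12Rik* may not have been told apart where they overlap. In the RefSeq-matched transcripts the overlap of exons is small, at 103 bases (chr13:78198120-78198222), which is 3.21% of the *Nr2f1* exons and 6.99% of those of *A830082K12Rik*. Over all GENCODE transcripts it is 123 bases. The number of *Nr2f1* counts per *A830082K12Rik* count ran from 1.74 to 3.21 in control and from 2.48 to 3.53 in cKO libraries, and these ranges overlap. *Nr2f1* also shares sequence with *Nr2f2*: the longest identical run between their transcripts was 59 bases, and 10 of the 5090 windows of 50 bases in *Nr2f1* also occurred in *Nr2f2*. With *Nr2f6* the longest run was 23 bases. How reads that fit several genes were counted is not given in the sources used here.

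*Nr2f2* also has an antisense neighbour, the long noncoding RNA *B130024G19Rik* (chr7:70365383-70411146, plus strand). Its exons share no base with *Nr2f2* in the RefSeq-matched transcripts and 643 bases over all GENCODE transcripts. It did not pass the test, with 12.5 ± 1.52 CPM in control uteri, 14.1 ± 4.55 CPM in cKO uteri, a log2 fold change of 0.17 (SE 0.21) and an edgeR adjusted p of 0.683. The cKO libraries spread from 8.16 CPM in replicate 4 to 17.9 CPM in replicate 2.

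The tested genes beside the 3 loci were read for differences of their own. None of the 18 nearest tested genes, 3 on each side of each locus, passed edgeR's adjusted p threshold, 2 had an unadjusted p under 0.05, and DESeq2 called 1 and limma-voom 0. Beside *Nr2f1*, *Fam172a*, 22.7 kb away, read 67.4 ± 1.66 and 67.4 ± 2.75 CPM (SD, n = 4), with a log2 fold change of 0.00 (SE 0.05, adjusted p = 0.995). *Arrdc3*, an arrestin-domain gene and the nearest tested gene on the other side, 2685 kb from *Nr2f1*, changed by -0.04 (SE 0.07, adjusted p = 0.776). Between *Fam172a* and *Nr2f1* lies the noncoding *3110006O06Rik*, with 2 to 9 counts per library and a log2 fold change of 1.02 (SE 0.46, adjusted p = 0.222). At that depth no statement on it can be made.

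Around *Nr2f2*, the closest gene to the threshold was *Arrdc4*, another arrestin-domain gene, 1603 kb away, at 81.0 ± 9.09 CPM in control uteri and 97.1 ± 3.64 CPM in cKO uteri. Its log2 fold change was 0.26 (SE 0.07, edgeR adjusted p = 0.0611), and over the alternatives tried its adjusted p ran from 0.0103 to 0.411, passing with library totals alone (0.0424), without the filter (0.0472), with DESeq2 (0.0225) and without control replicate 2 (0.0103). *Nr2f6* lies among closely spaced genes. Its nearest neighbours *Ocel1* (0.429 kb), *Ushbp1* (2.31 kb) and *Use1* (4.39 kb) changed by 0.19, 0.29 and 0.03, with adjusted p of 0.481, 0.238 and 0.752. *Ushbp1* passed when cKO replicate 4 was left out, with a log2 fold change of up to 0.39 and adjusted p = 0.0469.

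**Figure D3:**
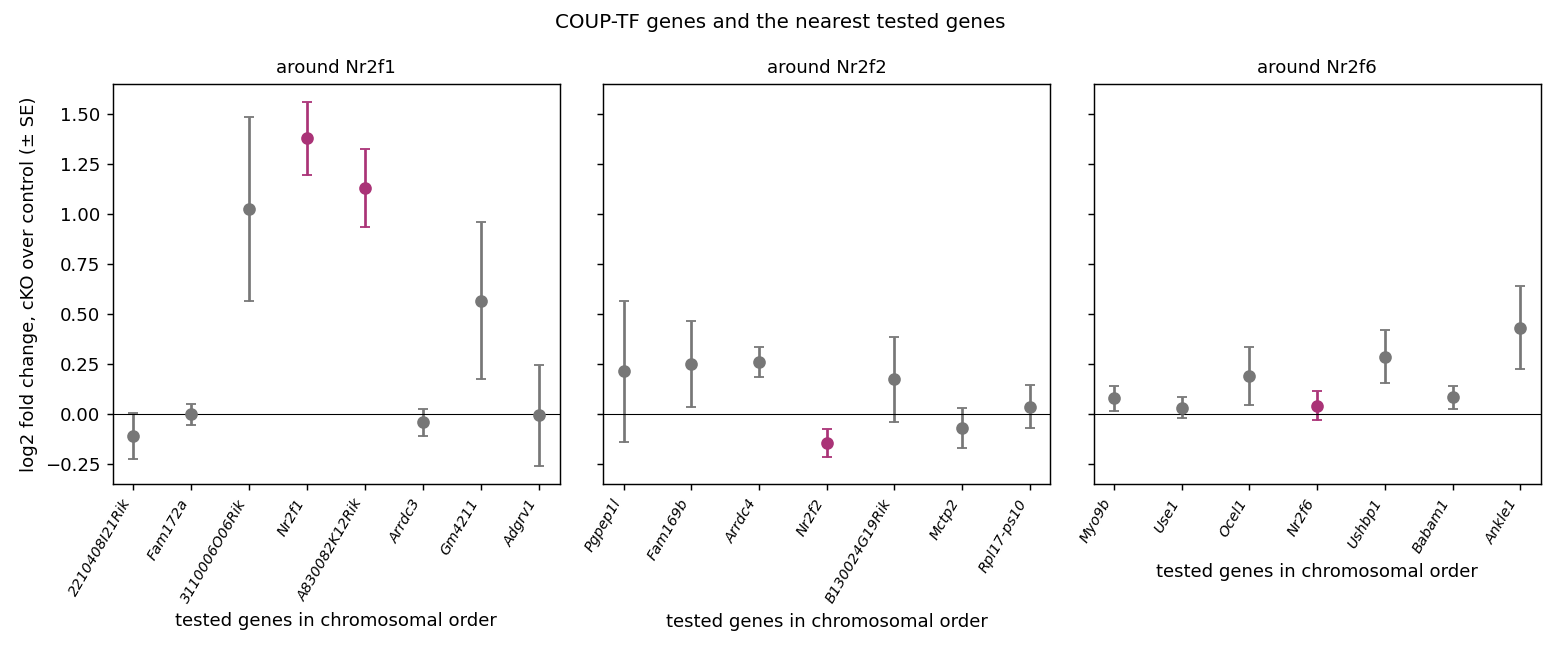
Log2 fold change of cKO over control with its SE for the COUP-TF genes and *A830082K12Rik* (purple) and the nearest tested genes (grey), in chromosomal order. *Nr2f1* and *A830082K12Rik* stand at 1.38 and 1.13 between *Fam172a* at 0.00 and *Arrdc3* at -0.04, and the wide bar of *3110006O06Rik* comes with 2 to 9 counts.

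COUP-TFs act beside other nuclear receptors, with some of which they share binding sites or partners. Of 39 other nuclear receptor genes tested, edgeR called 3 (7.69%, beside 5.34% of all genes), and the list's median log2 fold change was 0.04, beside 0.00044 over all genes. *Thrb*, a thyroid hormone receptor, rose from 7.73 ± 0.941 to 11.6 ± 1.78 CPM (log2 fold change 0.59, SE 0.13, adjusted p = 0.0209). *Pparg*, the receptor that drives fat cell formation and a member of the fat marker list too, rose from 1.14 ± 0.401 to 3.60 ± 1.86 CPM (1.63, SE 0.40, adjusted p = 0.0418), though cKO replicate 4 read 1.44 CPM, within the control range. *Rorb* fell from 17.9 ± 0.918 to 12.4 ± 1.59 CPM (-0.52, SE 0.10, adjusted p = 0.00905).

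How firm these calls were differed. *Rorb* stayed past the threshold in 17 of the 18 alternatives (adjusted p 6.28e-05 to 0.102), *Thrb* in 12 (0.000885 to 0.685) and *Pparg* in 8 (0.000588 to 0.923). *Thrb* lost its call when control replicate 1, 3 or 4, or cKO replicate 1 or 2, was left out, with log2 fold changes of 0.52 to 0.59 and adjusted p of 0.0501 to 0.0679. *Pparg* lost its call when replicate 1, 2 or 3 of either group was left out, with log2 fold changes of 1.30 to 1.72 and adjusted p of 0.0738 to 0.119. With the fat marker score in the fit *Pparg* fell to 0.36 (adjusted p = 0.923) and *Thrb* to 0.32 (adjusted p = 0.685). This score is the mean log2 level of the fat markers other than *Pparg*. The fat marker sum was 3.50 to 5.34 CPM in control libraries and 99.2, 226, 101 and 5.74 CPM in cKO replicates 1 to 4. The score thus largely followed genotype, and score and genotype cannot be fully told apart in that fit, here or below. That fit called 94 genes in all, beside 889 without the score. DESeq2 called 7 of the 39 genes (beside 9.04% of all genes), adding *Esr2*, *Nr1h3*, *Ppara* and *Rarb*, which are named after their values were seen, and limma-voom called 2, *Thrb* and *Rorb*. At an unadjusted p under 0.05, edgeR had 12, beside 21.2% of all genes.

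Of the receptors that mediate the hormone response of the uterus, *Pgr*, *Esr1* and *Esr2* did not pass edgeR's test. The progesterone receptor *Pgr* read 583 ± 31.9 CPM in control uteri and 469 ± 101 CPM in cKO uteri (log2 fold change -0.31, SE 0.12, adjusted p = 0.176). Of the cKO libraries 3, at 379.9 to 462 CPM, lay below all controls, and replicate 4, at 611 CPM, lay above them all, and without replicate 4 *Pgr* passed at -0.47 (adjusted p = 0.00349). The estrogen receptor *Esr1* changed by -0.11 (SE 0.07, adjusted p = 0.385). The other estrogen receptor, *Esr2*, read 1.31 CPM in control uteri and 2.87 CPM in cKO uteri on average (log2 fold change 1.11, SE 0.31, adjusted p = 0.0611), and passed with DESeq2 (1.12, adjusted p = 0.0102), with the replicate block (1.19, adjusted p = 0.0124) without control replicate 2 (0.85, adjusted p = 0.0387) or 4 (1.38, adjusted p = 0.0330). The retinoid receptors *Rara* and *Rxra*, the latter a partner of many receptors, changed by 0.14 and 0.07, with adjusted p of 0.330 and 0.544. Among the 42 receptor genes tested, the COUP-TF genes included, *Nr2f2* ranked 3 by mean CPM, after *Pgr* and *Esr1*, *Nr2f6* ranked 14 and *Nr2f1* ranked 32. By log2 fold change *Nr2f1* ranked 2, after *Pparg*.

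**Figure D4:**
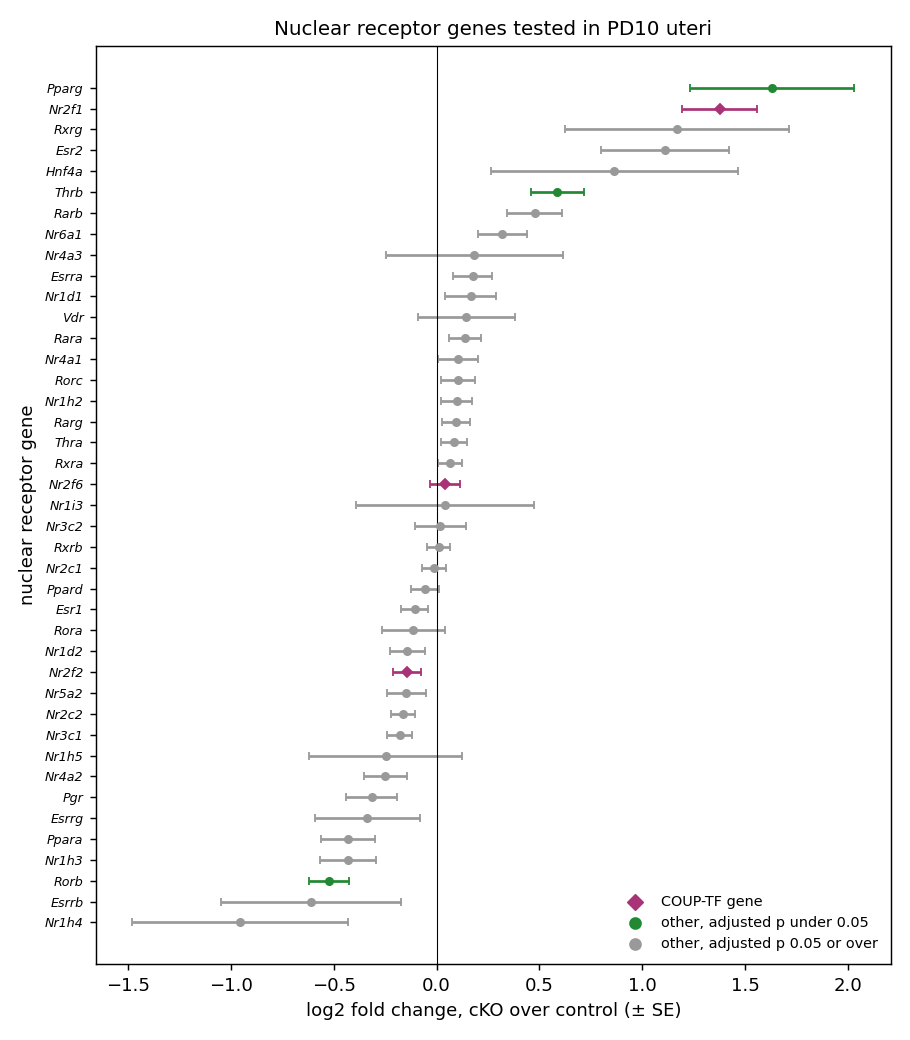
Log2 fold change of cKO over control with its SE for the nuclear receptor genes tested, ordered by value, with 1 of the 42 not shown. *Nr2f1* stands at 1.38, second to *Pparg* at 1.63, while *Nr2f6* (0.04) and *Nr2f2* (-0.14) lie near the middle of the receptors.

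Among 18 genes for proteins that COUP-TFs bind or work through, edgeR called 2 (11.1%, beside 5.34%), both higher, and the median log2 fold change was -0.04. *Bcl11a*, a zinc finger repressor first described as a COUP-TF partner, rose from 12.7 ± 0.702 to 17.4 ± 1.97 CPM (log2 fold change 0.45, SE 0.10, adjusted p = 0.0182). *Zfpm2*, the GATA cofactor FOG2, rose from 13.4 ± 1.84 to 19.6 ± 3.91 CPM (0.54, SE 0.14, adjusted p = 0.0463). Neither gene's groups overlapped, although cKO replicate 4 of *Zfpm2* read 15.3 CPM against 15.2 CPM in the highest control library. *Bcl11a* passed in 15 of the 18 alternatives (adjusted p 0.00078 to 0.181) and lost its call without cKO replicate 1 (0.40, adjusted p = 0.0622) or 3 (0.42, adjusted p = 0.0595). *Zfpm2* passed in 9 (adjusted p 0.0054 to 0.807) and lost its call without any 1 of the libraries but control replicate 4 and cKO replicate 4, with log2 fold changes of 0.42 to 0.59, and with the fat marker score it fell to 0.28 (adjusted p = 0.807). The general corepressor gene *Ncor1*, named after its value was seen, changed by -0.09 (SE 0.06, adjusted p = 0.439). DESeq2 also called 2 of the 18 genes and limma-voom 1, and 3 had an unadjusted p under 0.05.

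In the uterine pathway that ends in COUP-TFII, 4 of 14 genes were called (28.6%, beside 5.34%), all lower and all DE, with a list median of -0.11. The ligand gene *Ihh* fell from 4.36 ± 0.950 to 0.360 ± 0.256 CPM (log2 fold change -3.58, SE 0.34, adjusted p = 0.000105). The hedgehog-responsive genes *Gli1* and *Ptch1* fell by 1.44 and 1.03 on the log2 scale, with adjusted p of 0.000493 and 0.000249. Beside these, the value of *Nr2f2* itself was -0.14 (SE 0.07). Of the genes acting with or after COUP-TFII in the stroma, *Hand2*, a transcription factor, changed by -0.18 (SE 0.07, adjusted p = 0.190), *Bmp2* by -0.17 (SE 0.11, adjusted p = 0.396) and *Wnt4* by 0.08 (SE 0.08, adjusted p = 0.625), and none passed. The 4 calls held in each of the 18 alternatives.

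Of 32 genes described elsewhere, in other tissues, as regulated by COUP-TFs, 20 were tested and edgeR called none. Of the 20, 5 (25.0%) had an unadjusted p under 0.05, beside 21.2% of all genes, DESeq2 called 2 (10.0%), beside 9.04%, and limma-voom 0, and the median log2 fold change was 0.13. Those 5, named after their values were seen, were *Ltf* (lactotransferrin, 1.00, SE 0.32, adjusted p = 0.0939), *Foxc1* (0.70, SE 0.25, adjusted p = 0.131), *Rarb* (0.48, SE 0.13, adjusted p = 0.0589), *Flt4* (0.16, SE 0.07, adjusted p = 0.231) and *Nrp1* (-0.21, SE 0.08, adjusted p = 0.152). Such targets were drawn from heart, vessel, eye and other tissues and need not be targets in the uterus. Leaving out 1 library gave up to 2 calls, *Flt4* and *Foxc1* without cKO replicate 4 and *Nrp1* and *Nrp2* without control replicate 3. There was 1 call each without control replicate 2 (*Ltf*), control replicate 4 (*Rarb*) and cKO replicate 3 (*Rarb*).

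Marker lists of the cell types a uterus may hold were read beside the 4 genes. The stromal markers summed to 10231 to 13333 CPM in control uteri and 12058 to 15511 CPM in cKO uteri, so stromal transcripts were abundant in all libraries, and edgeR called 4 of 12 (33.3%, beside 5.34% of all genes). In cKO replicate 4 the stromal sum was 12058 CPM, within the control range, and in the other cKO libraries it was 15334 to 15511 CPM, above all controls. Most of this sum came from the collagen genes *Col3a1*, *Col1a1* and *Col1a2*. Their means were 6287, 1557 and 1521 CPM in control uteri and 8063, 2054 and 1954 CPM in cKO uteri. Of the 12 markers, 7 had log2 fold changes above 0 and 5 below. *Vim* changed by 0.05, *Pdgfra* by -0.13, *Pdgfrb* by -0.02 and *Emx2* by 0.04. *Col3a1* rose (log2 fold change 0.36), and *Hoxa10*, *Hoxa11* and *Amhr2*, the gene that drives Cre here, fell, *Amhr2* from 6.15 ± 0.749 to 3.69 ± 0.610 CPM (adjusted p = 0.0148). *Amhr2* lost its call without control replicate 1 (-0.67, adjusted p = 0.0605) or cKO replicate 1 (-0.66, adjusted p = 0.0525), and *Col3a1* lost its call when control replicate 1, 3 or 4, or any of cKO replicates 1 to 3, was left out (adjusted p 0.0844 to 0.124), with limma-voom (0.0514) and without robust estimation (0.0504). With the fat marker score in the fit *Col3a1* fell to 0.13 (adjusted p = 0.886). In that fit *Amhr2* (-0.97, adjusted p = 0.106), *Hoxa10* (-0.55, 0.0550) and *Hoxa11* (-0.59, 0.0863) also lost their calls. Their log2 fold changes without the score were -0.73, -0.62 and -0.49. None of the markers of epithelium (10 tested), smooth muscle (8), endothelium (7), lymphatic vessels (5), mesothelium (6) or ovary and oviduct (4) was called by edgeR, and their sums overlapped between the groups. Of these 40 genes, 11 had an unadjusted p under 0.05 (beside 21.2% of all genes), DESeq2 called 3 (beside 9.04%) and limma-voom 0. With 1 library left out, edgeR called *Pecam1* of endothelium without control replicate 2 (0.33, adjusted p = 0.0457) or cKO replicate 4 (0.34, 0.0162). It called *Myh11* of smooth muscle without control replicate 2 (0.39, 0.0117). All epithelium and smooth muscle markers and 6 of the 7 of endothelium had log2 fold changes above 0. Of the skeletal muscle markers *Myh3* (log2 fold change 4.08) and *Tnnt3* (0.80) were called, with overlapping sums, *Tnnt3* losing its call when control replicate 1, 3 or 4, or cKO replicate 1 or 2, was left out (adjusted p 0.0604 to 0.0853) and both losing theirs with the fat marker score (*Myh3* at 4.04, adjusted p = 0.0962, and *Tnnt3* at 0.38, adjusted p = 0.761), and of 9 immune markers 1 was called, *Ncr1*, lower.

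The nerve and Schwann cell markers, like *Nr2f1*, had higher means in cKO uteri. All 8 had log2 fold changes above 0, edgeR called 4 higher (beside 2.62% of all genes), and their sum ran from 73.0 to 83.0 CPM in control uteri and from 86.1 to 102.4 CPM in cKO uteri, so the groups did not overlap. Within the groups the order of the libraries was not that of *Nr2f1*. Control replicate 4 had the highest control sum (83.0 CPM) and the lowest *Nr2f1* (2.14 CPM). The cKO replicate 2 had the lowest cKO sum (86.1 CPM) and the highest *Nr2f1* (8.27 CPM). Most of this sum was *Erbb3* (49.8 to 58.6 CPM in control uteri, 58.2 to 71.9 CPM in cKO uteri), a receptor gene that epithelium expresses too. *Sox10*, the defining factor of Schwann cells, rose from 1.31 ± 0.333 to 2.46 ± 0.608 CPM (0.92, SE 0.23, adjusted p = 0.0407), and *Foxd3*, *Cdh19* and *Erbb3*, named after their values were seen, rose by 1.27, 1.02 and 0.33. Without control replicate 1, control replicate 3 or cKO replicate 1, all 4 calls were lost, with adjusted p of 0.0576 to 0.145. Further calls were lost without control replicate 2 (*Foxd3*, 0.0771), control replicate 4 (*Sox10*, 0.105; *Cdh19*, 0.0820), cKO replicate 2 (*Sox10*, 0.0847; *Foxd3*, 0.0959; *Cdh19*, 0.139) and cKO replicate 3 (*Sox10*, 0.0850; *Foxd3*, 0.107; *Erbb3*, 0.0857). With the fat marker score in the fit all 4 calls were lost, *Sox10* falling to 0.49 (adjusted p = 0.776), *Cdh19* to 0.60 (0.767) and *Foxd3* to 1.19 (0.500), while *Erbb3* read 0.47 (0.0845). *Foxd3* was also lost with DESeq2 (0.0651), without the filter (0.0584) and with the replicate block (0.0601), and *Cdh19* with limma-voom (0.0645). No marker of the list was at 0. What part nerve cells have in the *Nr2f1* values was not tested.

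Fat markers moved too, but not in every cKO library. Their sum was 3.50 to 5.34 CPM in the control libraries and 99.2, 226, 101 and 5.74 CPM in cKO replicates 1 to 4. *Adipoq*, which defines fat cells, read 0.0631 to 0.387 CPM in control uteri and 0.0350 CPM, a single count, in cKO replicate 4, and *Fabp4* read 0.659 to 1.43 and 1.61 CPM. All 7 tested fat markers had log2 fold changes above 0 and an unadjusted p under 0.05. Of these, edgeR called 2, *Pparg* and *Adrb3*, DESeq2 called 7 and limma-voom 1. *Adipoq* and *Fabp4* passed with edgeR when cKO replicate 4 was left out (adjusted p 4.44e-05 and 0.00166). With all libraries kept, both also passed with edgeR without robust estimation (0.00859 and 0.00521), and *Adipoq* with the replicate block (0.0462). In cKO replicate 4, where this sum was 5.74 CPM, *Nr2f1* was 2.13 times and *A830082K12Rik* 2.11 times the control mean. *Adrb3* of the fat list was raised in that library too, at 2.10 CPM against 0.915 to 1.18 CPM in the controls. What part fat cells have in the values of the members was not tested. When a fat marker score was added to the fit, the log2 fold changes were 1.06 for *Nr2f1* and 0.99 for *A830082K12Rik*, neither was past the adjusted p threshold, and 94 genes in all were called in that fit. The score largely followed genotype, so that fit cannot fully tell fat from genotype.

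**Figure D5:**
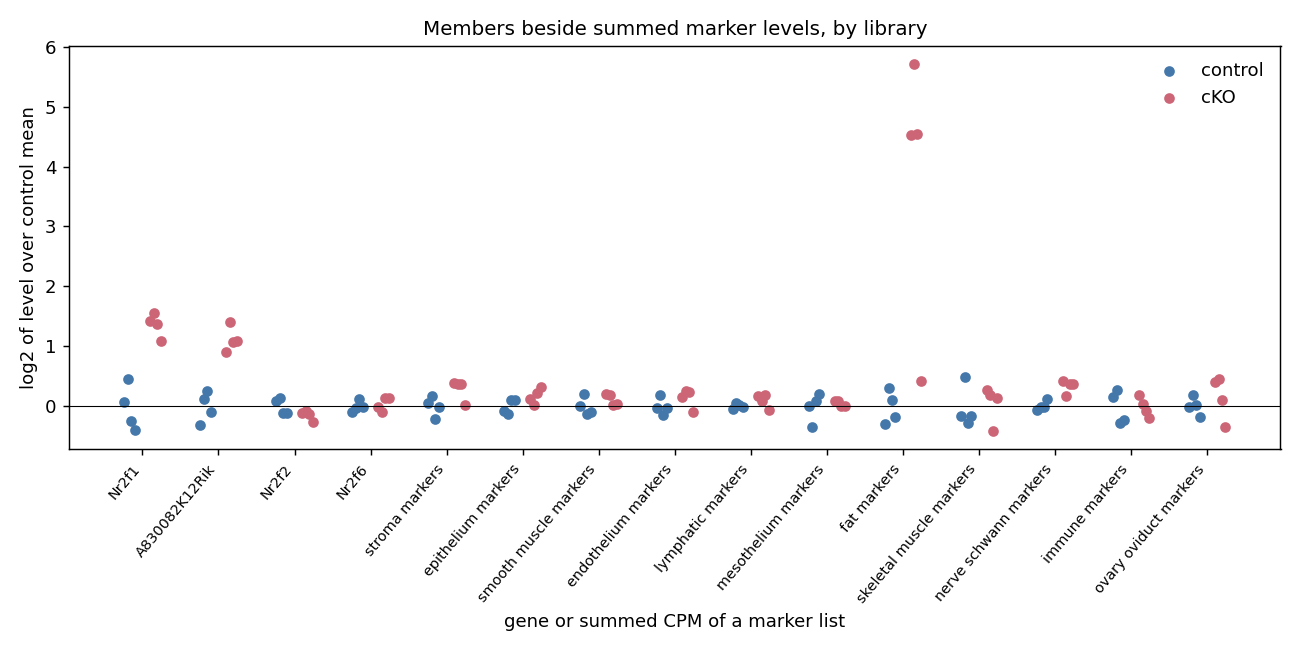
Log2 of the level in each library over the mean of the control libraries, for the 4 genes and for the summed CPM of each marker list (blue, control; red, cKO). *Nr2f1* and *A830082K12Rik* are raised in all 4 cKO libraries, the fat sum is raised in 3 of them with replicate 4 (5.74 CPM) near the controls (3.50 to 5.34 CPM), and the nerve and Schwann cell sum is shifted by less.

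The genes whose profile over the 8 libraries was most like that of each member were found among 14456 genes with a mean of at least 1 CPM, by the smallest root mean square difference between log2(CPM + 0.1) values centred on each gene's mean. This measure uses the difference between genotypes, so the genes it finds are a description. For *Nr2f1* they were *Rbfox3*, which encodes the neuronal marker NeuN (difference 0.164), *Hoxa3*, an anterior Hox gene (0.186), and *Espn*, for the actin-bundling protein espin (0.193). *Rbfox3* went from 0.651 ± 0.159 to 2.05 ± 0.282 CPM, *Hoxa3* from 2.89 ± 0.386 to 7.28 ± 0.249 CPM and *Espn* from 3.99 ± 0.772 to 8.35 ± 0.677 CPM (SD, n = 4). *A830082K12Rik* ranked 35 for *Nr2f1* (0.327). For *A830082K12Rik* the 3 genes were *Adrb3*, a receptor of fat cells (0.179), *Myh6*, a cardiac myosin (0.183), and *Pcolce2*, an enhancer of procollagen processing (0.195). *Nr2f2* was most like *Tfap4* (0.0365), *Arhgef6* (0.0372) and *Ip6k1* (0.0425), and *Nr2f6* most like *Spcs1* (0.0276), *Blvra* (0.0289) and *Tpd52* (0.032). Between *Nr2f2* and *Nr2f1* the difference was 0.77, which put *Nr2f1* at rank 14331 of the 14456 genes.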

How the data were processed

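Reads were trimmed (Trimmomatic), aligned to GRCm38 (HISAT2) and assigned to genes (featureCounts) by the authors, and the deposited files hold the resulting raw counts of each library by Entrez gene. The annotation release, the strand setting and tool versions are not given in the sources used here. Symbols came from the deposited edgeR table, whose fold changes and p-values, like the table of normalized counts, were not used.

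Genes above 0.2 CPM in 4 or more libraries went into edgeR 4.0.16 in R 4.3.3 (quasi-likelihood test), with the filter, TMM, robust estimation and Benjamini-Hochberg adjustment as in the methods of the study. The SE is the log2 fold change divided by the square root of F. Alternatives were DESeq2 1.42.0, limma-voom (limma 3.58.1), other normalizations and filters, a prior count of 2, a replicate block, a fat marker score as a covariate and leaving out each library. The test was tried on simulated data. The members and lists were chosen with earlier results of these data known. Neighbours, called list genes and the receptor and pathway genes described whatever their result were named by a fixed rule. Coordinates and promoter sequences are from RefSeq (GRCm38.p6) and exons from GENCODE vM21. The zero-count limit covers counting error only. The mean chi-square of a gene between 2 libraries was 7.44 to 30.0 over the 28 pairs, so none agreed within sampling noise. The labels give no batch. Some named genes are not reported here.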

Additional observations from a re-analysis of the deposited data

Results flagged for a closer look

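In groups of 4 libraries, a value was taken as far from the rest when its gap to the nearest other library exceeded Dixon's critical share of the group's range. Of 188 groups examined, 10 met this, and chance gives about 1 in 20, or 9.4. None was a value of *Nr2f1*, *A830082K12Rik*, *Nr2f2* or *Nr2f6*.

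Among genes named beside the members, *Babam1*, near *Nr2f6*, had a control library at 56.2 CPM below the others at 62.5 to 63.3. *Rara* had a control library at 64.9 CPM above 54.9 to 56.1, and *Wnt4* had a cKO library at 54.1 CPM above 43.5 to 45.1. Of the genes most like *Nr2f1*, *Espn* had a control library at 5.14 CPM above 3.53 to 3.69, and *Rbfox3* had one at 0.890 CPM above 0.568 to 0.577. Both were control replicate 2, which was also the highest control library for *Nr2f1*.

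Among the markers, *Lyve1* had a control library at 22.2 CPM above 16.5 to 17.2 and *Prox1* had one at 7.60 CPM below 8.16 to 8.28. *Col3a1* had a cKO library at 6702 CPM below 8368 to 8606, and the stromal sum was 12058 CPM in cKO replicate 4, below 15334 to 15511. The skeletal muscle sum had a control library at 76.3 CPM above 44.9 to 48.7.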

How the results depend on the processing

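The log2 fold changes of *Nr2f1*, *A830082K12Rik*, *Nr2f2* and *Nr2f6* kept their sign under all 19 alternatives, within 1.06 to 1.55, 0.99 to 1.22, -0.26 to -0.10 and 0.01 to 0.14. With the fat marker score *Nr2f1* fell to 1.06 and *Nr2f2* to -0.26, and cKO replicate 4 alone gave the same rounded values (1.06 and -0.26). Leaving out 1 library gave 1.26 to 1.55 for *Nr2f1* and 1.03 to 1.22 for *A830082K12Rik*. No result changed sign among those past the threshold. For all genes, 437 were called higher and 452 lower. The fat score gave 31 and 63, DESeq2 793 and 713, and the replicate block 669 higher. Leaving out 1 library gave 192 (without control replicate 1) to 993 (without cKO replicate 4) higher and 233 to 790 lower (the same libraries), and the counts also moved by over 1.5 times without cKO replicates 1, 2 or 3, and the higher count without control replicate 3 (263). Of the other nuclear receptors, 3 were called, 5 with the replicate block, 0 with the fat score, 7 with DESeq2 and 1 to 4 without 1 library. Of the cofactors, 2 were called, 1 with library totals alone, 0 with the fat score, 1 with limma-voom and 0 to 2 without 1 library. Of the COUP-TF target genes none was called, 1 without the filter, 1 with the replicate block, 2 with DESeq2 and 0 to 2 without 1 library. Of the neighbours none was called, 1 with library totals alone, 1 without the filter, 1 with DESeq2 and 0 to 1 without 1 library. The causes of these changes were not tested. The labels do not say whether the replicate numbers pair the samples. Same-numbered libraries deviated together with correlations of -0.0035 to 0.194, and other pairs with -0.189 to 0.166. These ranges overlap, and 4 same-numbered pairs are too few to settle it. Depth limits *3110006O06Rik* (2 to 9 counts).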
